A study of Mus musculus with 33 samples.

Results

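Livers in which the stabilised form of β-catenin (Ex3) was added to MYC were compared with livers that received MYC alone. Samples were taken by their titles, and gave 5 MYC+Ex3 and 5 MYC livers, 10 of the 33 samples of the series. All 10 came from C57BL/6 mice aged 6 to 8 weeks that were given an intravenous dose of 1e+11 particles of AAV8-TBG-CRE, a viral vector whose Cre recombinase is driven by a hepatocyte promoter, and the livers were removed on day 4. Both groups carried R26-lslMYC, a MYC transgene at the Rosa26 locus that is silent until Cre removes a stop cassette. The MYC+Ex3 group (R26-lslMYC/beta-cat Ex3) also carried beta-cat Ex3, a β-catenin allele from which Cre removes exon 3. The comparison therefore has Cre and MYC in both arms and differs by the β-catenin allele. For reference, 5 Ex3 livers (beta-cat Ex3 alone) and 5 wild-type (WT) livers received the same virus and dose. Liver nodules (3 MYC and 3 MYC+Ex3 tumours) came from other mice that carried the same alleles with Albeta-CreERT2. Another 7 wild-type livers, given 4-OHT and labelled day 4, were used only in the fit of the tumours. The series addresses the joint action of the MYC and β-catenin alleles in the liver. Total RNA was sequenced, so each value is an average over hepatocytes with and without recombination and over the other cells of the liver.

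β-catenin carries the Wnt signal into the nucleus, where it joins transcription factors of the TCF/LEF family. Its exon 3 holds the residues that mark it for destruction, so that the protein made without that exon accumulates in the absence of a Wnt ligand. In the normal liver this pathway is active in the hepatocytes around the central vein. It maintains there the genes of glutamine synthesis and of several detoxifying enzymes, and it switches on its own inhibitors, such as Axin2 and Notum, as feedback.

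The 5 MYC libraries held 4.39 to 6.69 M reads in genes and the 5 MYC+Ex3 libraries 3.75 to 7.31 M. The highest value of any gene in these livers was 220 to 396 RPKM, the deposited unit, which scales reads by gene length and library size. Whether this narrow top of the scale compresses the fold of abundant liver genes was not tested. Some libraries stood apart from their groups in ways the labels do not explain. RNA of the epidermal keratins Krt5, Krt14 and Krt17 summed to 4.41 RPKM in MYC liver 4 and to 23.8, 3.95 and 8.44 RPKM in MYC+Ex3 livers 3, 4 and 5, and stayed below 1 RPKM in the other 6 livers. MYC liver 5 held RNA of the female-specific Xist at 86.1 RPKM together with the Y-linked Ddx3y at 4.74 RPKM. By these genes 3 of 5 MYC livers and 4 of 5 MYC+Ex3 livers were male. The livers left after removal of those with keratin RNA were 4 MYC and 2 MYC+Ex3 livers. Changes and calls are also given for these livers, from a fit that also held the Ex3 and WT livers without keratin RNA.

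The rows of the altered genes did not separate the groups. Ctnnb1, which encodes β-catenin, measured 124, 119, 135, 145 and 109 RPKM in the 5 MYC livers and 107, 107, 141, 124 and 130.0 RPKM in the 5 MYC+Ex3 livers. The groups overlapped, with a log2 change of -0.06 ± 0.09 (SE, limma adjusted p = 1.00). A gene-level value does not show whether exon 3 is present, so it is no check of the allele. Myc measured 4.75, 3.12, 3.57, 3.72 and 4.81 RPKM in the MYC livers and 4.10, 5.23, 1.93, 4.34 and 4.10 RPKM in the MYC+Ex3 livers (log2 change -0.05 ± 0.31, SE, limma adjusted p = 1.00). The sign of the Myc difference turned under some of the other settings, and these values do not separate reads of the transgene from reads of the mouse gene.

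Adding Ex3 to MYC raised 26 of 13267 tested genes and lowered none at an adjusted p under 0.05 (limma on log2(RPKM + 1), Benjamini-Hochberg adjustment over all tested genes). That is 0.196% of the genes tested. The log2 changes of the 26 genes ran from 0.83 to 2.40 with a median of 1.398, and 19 of them were at least 2-fold. In 6 of the 26 the mean of the MYC livers was under 1 RPKM, namely Mir670, Hcrtr2, D630003M21Rik, Gm10790, Prr18 and Pkp1. No MYC liver reached 1 RPKM for these genes. They therefore met the minimum for testing only through the MYC+Ex3 livers, the group in which they are high. The median change of all tested genes was -0.005, and 451 genes had an unadjusted p under 0.05. In 25 of the 26 genes every MYC+Ex3 liver was above every MYC liver, a separation found in 0.505% of all tested genes. The 26 were selected by their difference between these same livers, so their separation describes the calls and adds no evidence for them. The opposite separation, with every MYC+Ex3 liver below every MYC liver, was found in 0.173%. Of the 26, 13 belonged to the lists of Wnt targets, of glutamine, glutamate and ammonium handling or of pericentral hepatocyte genes. The other 13 belonged to none of the gene lists examined. All gene lists were written with earlier results of these data known, so counts of their members are not independent of those results.

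**Figure D1:**
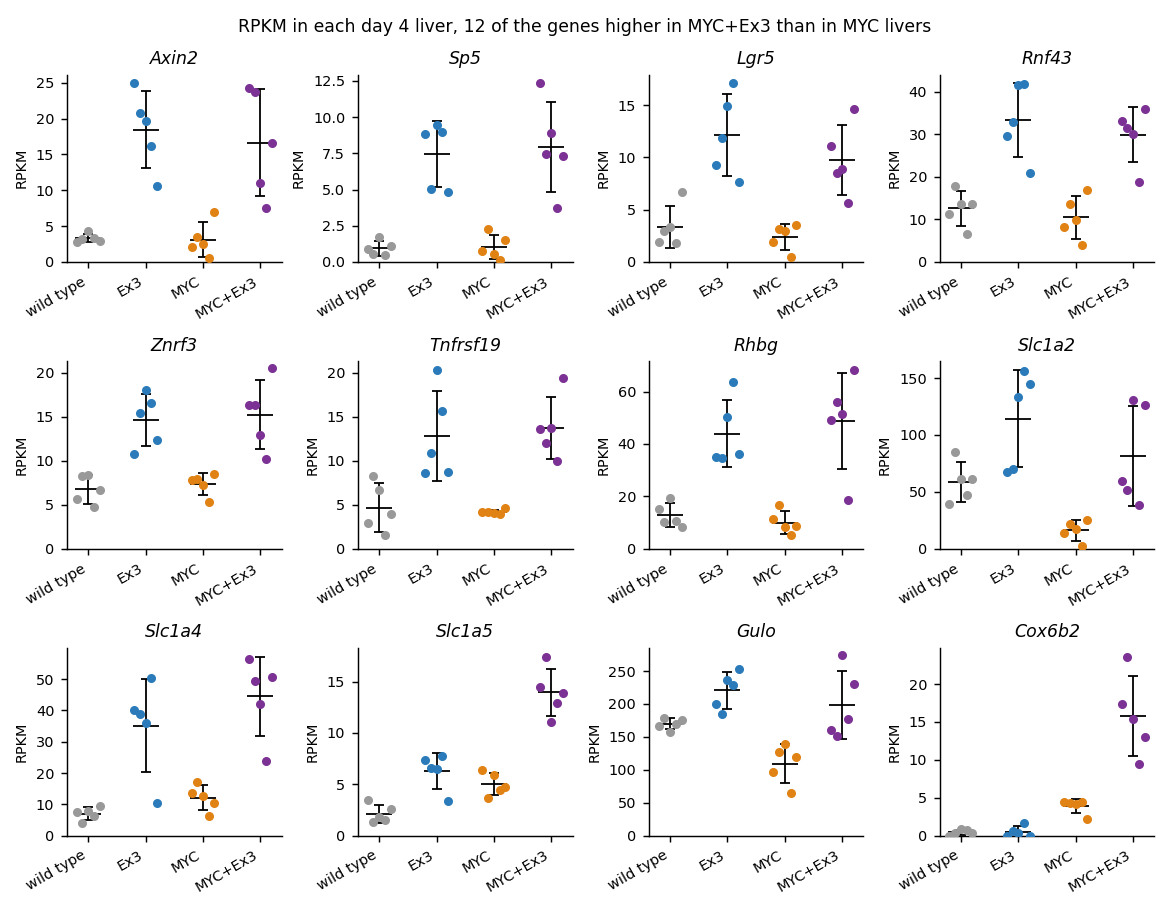
RPKM (vertical axis, from 0) of 12 of the 26 genes in each of the 20 day 4 livers, 1 point per liver, with a black line for the mean of each group and bars for its SD (n = 5). In each of the 12 panels the lowest MYC+Ex3 liver lies above the highest MYC liver.

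Among the inhibitors of the Wnt pathway, Axin2, the scaffold of the complex that destroys β-catenin, measured 2.08, 3.53, 2.49, 0.513 and 6.99 RPKM in the MYC livers and 24.3, 23.7, 11.1, 7.49 and 16.6 RPKM in the MYC+Ex3 livers. The lowest MYC+Ex3 liver was just above the highest MYC liver. The group means were 3.12 ± 2.42 and 16.6 ± 7.46 RPKM (SD, n = 5 each), a log2 change of 2.18 ± 0.35 (SE, limma adjusted p = 0.0087). In a fit of the 10 MYC and MYC+Ex3 livers alone the adjusted p of Axin2 was 0.190. Rnf43, a membrane ubiquitin ligase that removes Wnt receptors from the cell surface, measured 8.08, 13.6, 9.90, 3.94 and 17.0 RPKM in the MYC livers and 33.2, 31.4, 30.1, 18.9 and 35.9 RPKM in the MYC+Ex3 livers. It rose by a log2 change of 1.52 ± 0.29 (SE, limma adjusted p = 0.0323), and its relative Znrf3, with the same role, rose by 0.94 ± 0.19 (SE, limma adjusted p = 0.0366), from 5.33 to 8.52 RPKM over the MYC livers to 10.2 to 20.5 RPKM over the MYC+Ex3 livers. Znrf3 varied less between the livers of a group than Axin2 did, with an SD of 1.22 RPKM around a mean of 7.37 RPKM in the MYC livers.

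The other 4 called members of the Wnt target list were 2 membrane receptors and 2 transcription factors. Lgr5, a receptor for R-spondins, which strengthen Wnt signals, measured 1.86, 3.14, 3.0, 0.478 and 3.52 RPKM in the MYC livers and 11.1, 8.53, 8.88, 5.64 and 14.6 RPKM in the MYC+Ex3 livers. The groups did not overlap, and the log2 change was 1.71 ± 0.32 (SE, limma adjusted p = 0.0313). Its call was lost in the livers without keratin RNA (adjusted p = 0.0823) and in a fit of the 10 livers alone (0.162). Tnfrsf19, a receptor of the TNF receptor family, was nearly even among the MYC livers at 3.91 to 4.63 RPKM and reached 9.99 to 19.5 RPKM in the MYC+Ex3 livers, a log2 change of 1.48 ± 0.28 (SE, limma adjusted p = 0.0323, and 0.0992 in the livers without keratin RNA). Sp5, a zinc-finger transcription factor, was low in the MYC livers, at 0.726, 2.28, 0.543, 0.105 and 1.5 RPKM, and measured 12.3, 7.43, 8.90, 3.74 and 7.33 RPKM in the MYC+Ex3 livers. Its log2 change of 2.17 ± 0.29 (SE, limma adjusted p = 0.0017) is on the scale of log2(RPKM + 1), on which the folds of weakly expressed genes come out too small. In the livers without keratin RNA the change of Sp5 was 2.29 (limma adjusted p = 0.0670). Tcf7, a DNA-binding partner of β-catenin, was the called gene whose groups overlapped. It measured 5.52 RPKM in MYC liver 5 and 5.51 RPKM in MYC+Ex3 liver 4, with a log2 change of 1.13 ± 0.22 (SE, limma adjusted p = 0.0366).

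These 7 genes were the called members of a list of 24 Wnt feedback genes and common β-catenin targets, of which 15 were expressed highly enough to be tested. The list was written with earlier results of these data known. Of the 15, 12 were above 0 and their median log2 change was 1.13, beside a median of -0.005 and 48.5% above 0 over all genes tested. Outside the threshold, by a choice made after the values were seen, lay Notum, a secreted enzyme that inactivates Wnt proteins, and Tbx3, a transcription factor of the T-box family. Notum measured 13.1, 23.7, 26.6, 4.57 and 30.3 RPKM in the MYC livers and 54.2, 53.5, 58.5, 33.9 and 84.7 RPKM in the MYC+Ex3 livers, with no overlap (log2 change 1.66, limma adjusted p = 0.0614). Tbx3 had means of 5.42 and 16.2 RPKM (log2 change 1.48, limma adjusted p = 0.0825). Without the livers that held keratin RNA, 11 of the 15 list members were above 0 with a median of 1.18, and 1 passed the threshold. Without MYC livers 4 and 5 the values were 11 above 0, a median of 1.12 and 2 called. With each of MYC livers 1, 3 and 4 and MYC+Ex3 livers 1, 2, 3 and 5 left out in turn, 2 of the 15 were called, and without MYC liver 2 there were 4.

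Among transporters Slc1a2, which takes up glutamate and in the liver marks the hepatocytes next to the central vein, measured 14.2, 21.7, 17.5, 2.04 and 25.4 RPKM in the MYC livers and 59.2, 51.8, 130.4, 38.9 and 127 RPKM in the MYC+Ex3 livers. The groups did not overlap, MYC liver 4 was far below the other MYC livers, and MYC+Ex3 livers 3 and 5 were well above the other MYC+Ex3 livers. The log2 change was 2.40 ± 0.47 (SE, limma adjusted p = 0.0323). In the livers without keratin RNA it was 1.48 (limma adjusted p = 0.0670). The call was lost as well without MYC+Ex3 liver 3 (limma adjusted p = 0.140) and in a fit of the 10 MYC and MYC+Ex3 livers alone (0.405). In the authors' deposited table the adjusted p of Slc1a2 for the same comparison is 0.116.

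Relatives of Slc1a2 moved in the same direction. Slc1a4, a carrier of small neutral amino acids, measured 13.6, 17.2, 12.8, 6.39 and 10.6 RPKM in the MYC livers and 56.5, 49.4, 42.1, 23.8 and 50.7 RPKM in the MYC+Ex3 livers (log2 change 1.80 ± 0.34, SE, limma adjusted p = 0.0313). Slc1a5, a carrier of glutamine, measured 6.35, 3.64, 5.86, 4.47 and 4.71 RPKM in the MYC livers and 14.5, 17.4, 11.1, 12.9 and 13.9 RPKM in the MYC+Ex3 livers. The groups did not overlap, and its log2 change was 1.32 ± 0.21 (SE, limma adjusted p = 0.0062, and 0.0823 in the livers without keratin RNA). Rhbg, a membrane channel for ammonium, measured 11.3, 16.6, 8.18, 5.42 and 8.53 RPKM in the MYC livers and 49.0, 56.1, 51.3, 18.7 and 68.4 RPKM in the MYC+Ex3 livers. MYC+Ex3 liver 4, the lowest of its group, was only slightly above the highest MYC liver, and the log2 change was 2.14 ± 0.31 (SE, limma adjusted p = 0.0034). These 4 genes were the called members among 24 tested genes of glutamine, glutamate and ammonium handling. Of the 24, 14 were above 0 with a median log2 change of 0.04, beside 48.5% above 0 and 0.196% called over all tested genes. The list as a whole lay close to the median of all tested genes. Without the livers that held keratin RNA, 2 of the 24 were called, and without MYC livers 4 and 5 none was.

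Glul, glutamine synthetase, which removes ammonium next to the central vein, did not pass the threshold. It measured 140.5, 143, 155, 55.9 and 139 RPKM in the MYC livers and 208, 189, 315, 192 and 267 RPKM in the MYC+Ex3 livers. The groups did not overlap, and the log2 change was 0.94 ± 0.21 (SE, limma adjusted p = 0.0916). The pericentral hepatocyte list was also written with earlier results of these data known. Of this list, 32 of 32 tested members were above 0, with a median log2 change of 0.60, and 6 were called. Over all tested genes 48.5% were above 0 and 0.196% were called. Beside Rhbg, Slc1a2, Slc1a4 and Rnf43 these were Lhpp and Gulo. Lhpp, a phosphatase, measured 21.0, 40.8, 30.7, 12.3 and 38.9 RPKM in the MYC livers and 75.6, 64.9, 108, 44.8 and 123 RPKM in the MYC+Ex3 livers (log2 change 1.53 ± 0.29, SE, limma adjusted p = 0.0313). Gulo, the enzyme of the last step of vitamin C synthesis, rose from 64.1 to 139.5 RPKM over the MYC livers to 152 to 274 RPKM over the MYC+Ex3 livers, by 0.87 ± 0.18 (SE, limma adjusted p = 0.0480). Its call was lost whenever any 1 of the 20 livers was left out. Gstm2, a glutathione transferase outside this list, measured 53.4 to 94.8 RPKM in the MYC livers and 109.8 to 169.9 RPKM in the MYC+Ex3 livers (log2 change 0.83 ± 0.16, SE, limma adjusted p = 0.0323).

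The pericentral pattern depended on which livers were kept. In the livers without keratin RNA, 23 of the 32 members were above 0, the median was 0.35 and 2 were called. Without MYC livers 4 and 5, 30 were above 0 with a median of 0.54 and none was called, and with sex as a term 30 were above 0 and 11 were called. Leaving out each liver in turn gave 29 to 32 members above 0 and medians of 0.46 to 0.72. Without MYC liver 1 or 3, or MYC+Ex3 liver 1, 2, 3 or 5, 1 member was called, and without MYC liver 4 there were 2. The pericentral list shares Rnf43 and Tbx3 with the Wnt list. In MYC against WT livers 5 of the 32 members were above 0, beside 58.1% of all tested genes, with a median log2 change of -0.53. There 12 were called lower, beside 744 of all 13267 tested genes. In MYC+Ex3 against WT livers 20 of the 32 (62.5%) were above 0, beside 55.8% of all tested genes, and the median was 0.18. In such bulk samples more RNA per pericentral cell and more cells of that kind cannot be told apart.

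**Figure D2:**
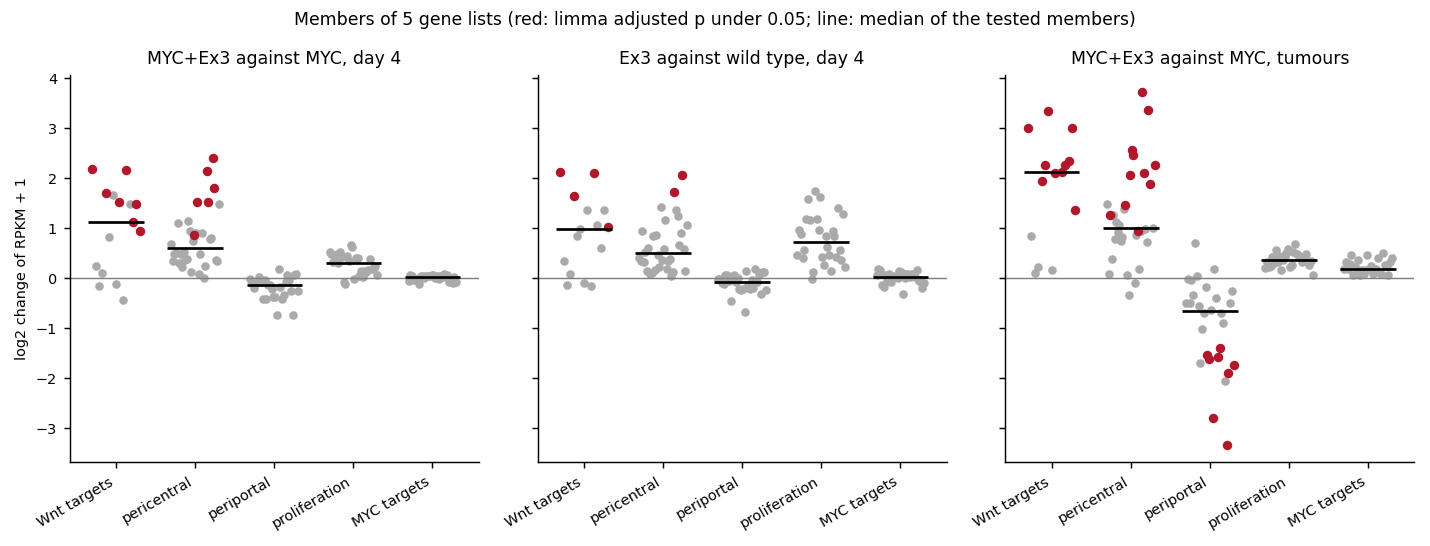
Log2 change of RPKM + 1 (vertical axis) of each tested member of 5 gene lists in MYC+Ex3 against MYC livers, Ex3 against WT livers and MYC+Ex3 against MYC tumours, 1 point per gene, red where the limma adjusted p is under 0.05, with the median of the tested members as a line. In the livers with MYC the medians are 1.13 for the Wnt targets, 0.60 for the pericentral genes and -0.13 for the periportal genes.

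Shown as examples are the promoters of 3 of the 5 called genes that held a sequence TCF/LEF factors are known to bind. Windows of 250 bases before to 50 bases after the annotated start were taken from RefSeq (GRCm38.p6) and searched for CTTTGAA and CTTTGAT and, for the other strand, TTCAAAG and ATCAAAG. Of the 26 called genes 18 were matched in the promoter table, and 5 of the 18 (27.8%) held a match, namely Sp5, Slc1a2, Teddm2, Tnfrsf19 and Gm10790. Of all 32851 windows 8.65% held one, and so did 7.33% of the 9801 tested genes that were matched. Tnfrsf19 held a match in 1 window and none in another. The windows of Axin2, Rnf43 and Tcf7 held no match, and Lgr5, Znrf3 and Rhbg had no window to search. The windows of Sp5 (chr2:70474673-70474972, plus strand), Slc1a2 (chr2:102706188-102706487, plus strand) and Teddm2 (chr1:153851146-153851445, minus strand) are given 5′ to 3′, with the match in capitals.
Sp5: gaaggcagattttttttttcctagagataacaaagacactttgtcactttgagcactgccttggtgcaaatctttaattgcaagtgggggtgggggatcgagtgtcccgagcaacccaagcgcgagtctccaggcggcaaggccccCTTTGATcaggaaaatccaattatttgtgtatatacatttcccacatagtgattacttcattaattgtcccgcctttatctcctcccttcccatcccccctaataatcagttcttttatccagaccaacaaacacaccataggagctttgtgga
Slc1a2: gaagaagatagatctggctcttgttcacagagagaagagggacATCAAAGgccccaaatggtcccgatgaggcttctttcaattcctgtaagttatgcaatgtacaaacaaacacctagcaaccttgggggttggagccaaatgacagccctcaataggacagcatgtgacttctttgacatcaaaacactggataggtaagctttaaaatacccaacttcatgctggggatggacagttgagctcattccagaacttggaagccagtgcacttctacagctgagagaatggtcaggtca
Teddm2: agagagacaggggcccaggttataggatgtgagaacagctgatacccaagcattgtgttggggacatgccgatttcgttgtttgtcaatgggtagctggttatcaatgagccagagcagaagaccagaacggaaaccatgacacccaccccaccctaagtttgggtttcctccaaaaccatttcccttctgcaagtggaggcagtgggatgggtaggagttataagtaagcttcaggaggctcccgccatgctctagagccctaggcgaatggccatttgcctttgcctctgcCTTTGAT
Counted from 0 at the annotated start, the match begins at position -104 in Sp5, -207 in Slc1a2 and 43 in Teddm2. A match describes the sequence and does not show that a factor is bound there.

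Other called genes belonged to none of the gene lists. Teddm2, a gene for a membrane protein, measured 1.33, 1.73, 0.911, 0.550 and 0.747 RPKM in the MYC livers and 7.46, 7.45, 7.47, 2.45 and 8.82 RPKM in the MYC+Ex3 livers (log2 change 1.86 ± 0.24, SE, limma adjusted p = 0.0016). Hcrtr2, a receptor for orexin, spread widely over the MYC+Ex3 livers, at 5.19, 3.67, 9.54, 2.48 and 0.825 RPKM, against 0.0349 to 0.501 RPKM in the MYC livers (log2 change 1.92 ± 0.37, SE, limma adjusted p = 0.0323). The row named Mir670 had the smallest adjusted p of all (0.000358, limma), with 2, 1, 1, 2 and 2 reads in the MYC livers and 32, 29, 34, 15 and 20 reads in the MYC+Ex3 livers. The gene length implied by its RPKM is longer than a miRNA hairpin, so the row is reported as RNA of that locus and not as a mature miRNA.

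Cox6b2, a subunit of cytochrome c oxidase mostly made in testis, measured 4.41, 4.36, 4.15, 4.37 and 2.23 RPKM in the MYC livers and 17.4, 23.5, 15.4, 9.42 and 13.1 RPKM in the MYC+Ex3 livers (log2 change 1.74 ± 0.27, SE, limma adjusted p = 0.0055, and 0.0660 in the livers without keratin RNA). Without MYC it was low in both genotypes, with means of 0.450 ± 0.317 RPKM in WT and 0.526 ± 0.704 RPKM in Ex3 livers (SD, n = 5 each). Egln3, a prolyl hydroxylase of the oxygen-sensing pathway, rose by 1.06 ± 0.19 from 10.4 to 17.5 RPKM over the MYC livers to 21.5 to 36.9 RPKM over the MYC+Ex3 livers (log2 change and SE, limma adjusted p = 0.0299). Slc25a21, a mitochondrial carrier of oxodicarboxylates, rose by 0.90 ± 0.17 on the same scale (SE, limma adjusted p = 0.0313), and Tuba8, an α-tubulin, by 1.30 ± 0.25 (SE, limma adjusted p = 0.0323). The remaining called genes were Ccdc157, D630003M21Rik, Gm10790, Prr18 and the desmosomal plakophilin Pkp1, with log2 changes from 0.83 to 1.29. Gm10790 had 0 to 3 reads in the MYC livers and 3 to 22 reads in the MYC+Ex3 livers.

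No gene passed the threshold in the lower direction in the fit of all 20 livers. In other fits some did, as described for 4 genes below. The smallest p among the lower genes was that of Qsox1, a secreted enzyme that forms disulphide bonds, which measured 57.9, 65.6, 70.4, 54.8 and 64.9 RPKM in the MYC livers and 43.1, 41.9, 42.9, 51.3 and 43.4 RPKM in the MYC+Ex3 livers. The groups did not overlap (log2 change -0.48 ± 0.10, SE, limma adjusted p = 0.0660). Qsox1 was called lower without MYC+Ex3 liver 4 (adjusted p = 0.0362), without WT liver 2 (0.0284) and with sample quality weights (0.0033). Sult2a7, a sulfotransferase with close paralogs between which reads may be split, measured 5.51, 7.35, 3.81, 8.34 and 8.16 RPKM in the MYC livers and 0.848, 2.13, 2.08, 0.437 and 1.39 RPKM in the MYC+Ex3 livers (log2 change -1.70 ± 0.41, SE, limma adjusted p = 0.163). It was called in the fit of the 10 livers alone (0.0436) and without WT liver 5 (0.0453). The asparaginase Aspg had a log2 change of -0.72 ± 0.18 (SE, limma adjusted p = 0.185) with an overlap between MYC liver 4 and MYC+Ex3 liver 4, and was called lower in the livers without keratin RNA (-0.88, adjusted p = 0.0383) and with sample quality weights (0.0064). Next by p were Zf12, the irisin precursor Fndc5, the sialyltransferase St3gal4, the serum amyloid P component Apcs, the mitochondrial serine transporter Sfxn1, the histidine-degrading enzyme Amdhd1 and Sdsl, with log2 changes from -0.74 to -0.31. Of these Apcs was called lower with a keratin term (adjusted p = 0.0360) and with sample quality weights (0.0193). The same threshold is passed by 37 genes in the authors' deposited table, 33 higher and 4 lower, the latter being Qsox1, Sult2a7, Aspg and Cxcl1. Of the 26 genes called here, 23 are among those 37.

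The periportal hepatocyte list, whose genes are most active near the portal vein, had 5 of 28 tested members above 0 and a median log2 change of -0.13, with none called. Over all tested genes 48.5% were above 0. Sdsl had the smallest p of this list, at 9.76, 12.3, 12.3, 16.4 and 10.8 RPKM in the MYC livers and 6.58, 6.00, 4.32, 13.6 and 6.17 RPKM in the MYC+Ex3 livers, which overlapped (log2 change -0.74 ± 0.24, SE, limma adjusted p = 0.719). The histidine ammonia-lyase gene Hal had a log2 change of -0.38 and the growth factor gene Igf1 one of -0.41, both with a limma adjusted p of 1.00. In the 6 livers without keratin RNA 1 of the 28 was above 0 and the median was -0.49.

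Genes of the cell cycle and of the MYC program showed no call. Of 28 proliferation genes 25 were above 0, beside 48.5% of all tested genes. Their median log2 change was 0.31, and leaving out each liver in turn gave 20 to 28 above 0. The mitotic gene Cenpf measured 16.7, 9.32, 15.5, 11.3 and 3.65 RPKM in the MYC livers and 22.5, 21.9, 12.1, 11.6 and 18.3 RPKM in the MYC+Ex3 livers, which overlapped (log2 change 0.66 ± 0.45, SE, limma adjusted p = 1.00). MYC liver 5, which held both Xist and Ddx3y RNA, was the lowest of its group for Cenpf. Of 28 MYC targets, 17 were above 0 with a median of 0.03, and leaving out 1 liver moved that count between 6 (without MYC liver 5) and 26 (without MYC liver 4). The nucleolar protein gene Nop56 gave 70.1 to 143 RPKM in the MYC livers and 93.9 to 124 RPKM in the MYC+Ex3 livers.

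Some lists of pathway components held no called gene. These lists leave out the called feedback genes Axin2, Rnf43, Znrf3 and Lgr5, which are in the Wnt target list. Of 19 tested Wnt ligands, receptors and R-spondins 6 were above 0 (median -0.10), and of 25 tested members of the destruction complex and partners of β-catenin 11 were above 0 (median -0.02). Rspo3, an R-spondin, measured 4.32 to 7.98 RPKM in the MYC livers and 3.82 to 7.54 RPKM in the MYC+Ex3 livers. Of 21 tested YAP/TAZ genes and targets 11 were above 0 with a median of 0.01. For these lists the share above 0 over all tested genes was 48.5%. Among the YAP/TAZ targets Cyr61, a secreted matrix protein, measured 4.02 to 11.9 RPKM in the MYC livers and 4.74 to 19.6 RPKM in the MYC+Ex3 livers (log2 change 0.74 ± 0.34, SE, limma adjusted p = 1.00).

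Markers of other cells were checked beside these results. The summed level of 15 hepatocyte markers was 2549 to 3590 RPKM in the MYC livers and 2357 to 3805 RPKM in the MYC+Ex3 livers, so the labelled tissue was present in both groups. The sums of 12 cholangiocyte markers were 48.3 to 110.7 and 36.1 to 107 RPKM, and those of 12 Kupffer cell and macrophage markers 662 to 972 and 534 to 984 RPKM. For 12 endothelial markers they were 157 to 324 and 183 to 311 RPKM, for 12 stellate cell and fibroblast markers 164 to 266 and 121 to 272 RPKM, and for 7 erythroid markers 56.6 to 133 and 78.9 to 127 RPKM. Markers of lymphocytes and neutrophils summed to 21.8 to 132 RPKM in the MYC livers and 20.2 to 62.9 RPKM in the MYC+Ex3 livers. Of 12 keratinocyte markers 7 stayed under 1 RPKM in every MYC liver and 6 in every MYC+Ex3 liver. The list summed to 102 to 132 and 98.6 to 146 RPKM. No marker of these lists was called, and the ranges of the groups overlapped for each list. None of the 6 tested cholangiocyte markers and 1 of the 12 tested Kupffer cell markers were above 0, with medians of -0.30 and -0.20. Of the tested keratinocyte markers 4 of 6 were above 0 with a median of 0.55, and of the erythroid markers 4 of 4 with a median of 0.24. Over all tested genes 48.5% were above 0. The part of these cells in the results was not tested.

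The called genes moved together across the livers of a group. MYC liver 4 had the lowest MYC value in 18 of the 26 genes (69.2%), and it had the lowest value in 33.2% of all tested genes. MYC+Ex3 liver 4 had the lowest value of its group in 20 of the 26 genes (76.9%) and in 13.7% of all tested genes. The highest values were most often in MYC liver 5 (12 of 26) and MYC+Ex3 liver 5 (11 of 26). The share of all tested genes with their highest value in these livers was not counted, so these counts cannot be set against it. Both livers numbered 4 held keratin RNA, and the part of that RNA in these low values was not tested. Their numbers follow the order of the records and do not pair the animals.

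Ex3 without MYC raised an overlapping set of genes in livers that share no animal with the comparison above. In the 5 Ex3 against the 5 WT livers 17 genes were called, all higher, which is 0.128% of the genes tested. Of these, 10 were among the 26 genes raised by Ex3 on top of MYC, which is 38.5% of the 26 and 58.8% of the 17. Both comparisons came from the same fit of all day 4 livers, which pooled the spread of each gene over the groups. The tested genes were selected by their levels in the MYC and MYC+Ex3 livers. The shared calls are therefore not from independent tests. In a fit of the Ex3 and WT livers alone, 8 of the 26 were called. Of the 26 genes, 25 were higher in Ex3 than in WT livers, beside 53.3% of all tested genes. Their median log2 change was 1.08, as fitted on log2(RPKM + 1). The exception was Cox6b2, whose fitted change was close to 0. In the livers without keratin RNA 1 of the 26 was called for Ex3 alone, without Ex3 liver 3 it was 3, without Ex3 liver 4 it was 4, and without WT liver 4 it was 5.

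The levels in the 4 day 4 genotypes did not follow the same order in every called gene. Sp5 had its lowest mean in WT and its highest in MYC+Ex3 livers. Axin2, Lgr5, Slc1a2 and Gulo had their lowest mean in MYC and their highest in Ex3 livers. Axin2 averaged 3.32 ± 0.609 RPKM in WT and 18.4 ± 5.37 RPKM in Ex3 livers (SD, n = 5 each), close to its levels in MYC and MYC+Ex3 livers. Lgr5 averaged 3.35 ± 1.99 RPKM in WT and 12.2 ± 3.91 RPKM in Ex3 livers, against 2.40 ± 1.24 RPKM in MYC and 9.76 ± 3.35 RPKM in MYC+Ex3 livers (SD, n = 5 each). For Slc1a2 the WT mean was well above the MYC mean. It averaged 58.6 ± 17.4 RPKM in WT, 114 ± 42.5 RPKM in Ex3, 16.2 ± 8.96 RPKM in MYC and 81.4 ± 43.7 RPKM in MYC+Ex3 livers (SD, n = 5 each). Gulo averaged 169.7 ± 8.25 RPKM in WT and 109 ± 29.7 RPKM in MYC livers, and 221 ± 27.5 and 199 ± 51.9 RPKM in Ex3 and MYC+Ex3 livers (SD, n = 5 each). In each of these genes the MYC+Ex3 mean lay between the WT and Ex3 means. For Slc1a2 and Gulo the SD of the MYC+Ex3 livers covered both means, and for Axin2 and Lgr5 it covered the Ex3 mean only.

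The test of whether the effect of Ex3 differed with and without MYC, the interaction in the fit of all 20 livers, called no gene (0% of those tested, limma, smallest adjusted p 1.00), and 123 genes had an unadjusted p under 0.05. The voom fit on recovered reads called 0 as well. Of the 26 genes 5 were among those 123, namely Cox6b2, Mir670, Hcrtr2, Gm10790 and Slc1a2. For Cox6b2 the effect of Ex3 was 1.74 log2 units larger with MYC than without (unadjusted p = 0.00015, limma), and for Slc1a2 it was 1.49 larger (unadjusted p = 0.0360, limma). On the scale of log2(RPKM + 1) the folds of weakly expressed genes come out too small. Cox6b2 was low in the WT and Ex3 livers, and Mir670, Hcrtr2 and Gm10790 stayed under 1 RPKM in every MYC liver. The part of the scale in these differences was not tested. For Axin2 the difference was 0.05 and for Sp5 0.06, with unadjusted p of 0.922 and 0.885 (limma). None of these differences passed the adjustment over all genes.

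**Figure D3:**
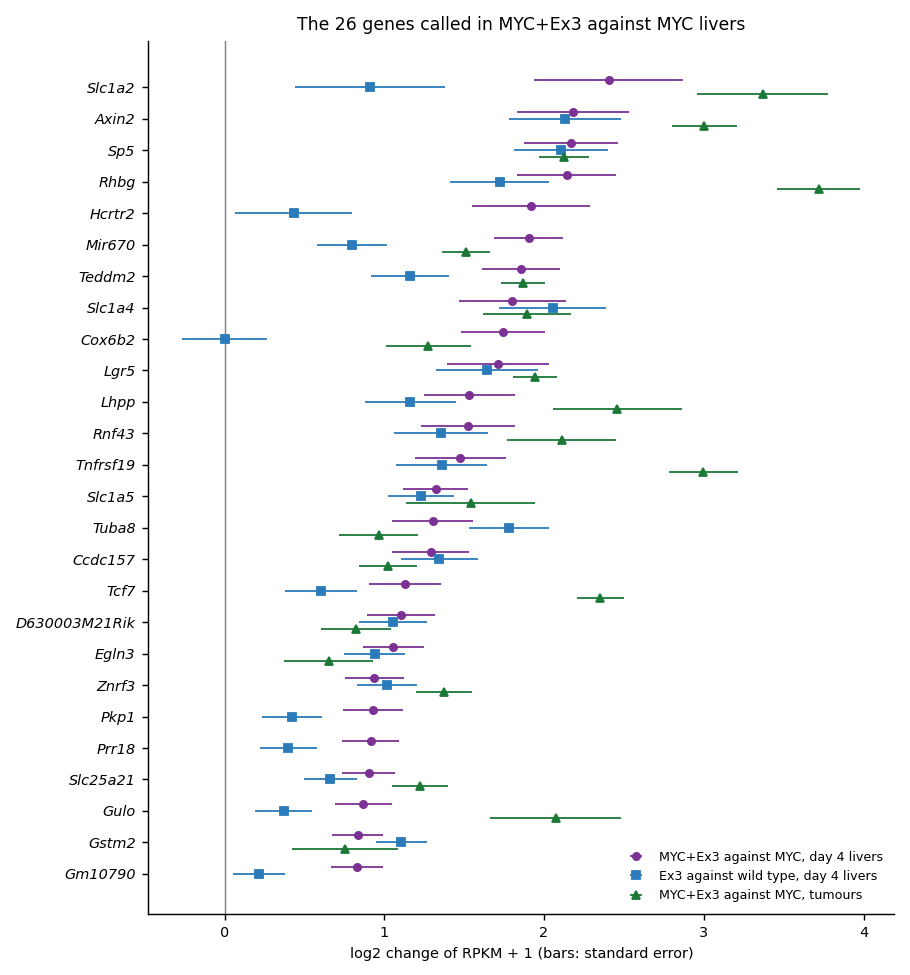
Log2 change of RPKM + 1 (horizontal axis, bars show the SE) of the 26 genes in MYC+Ex3 against MYC livers, Ex3 against WT livers and MYC+Ex3 against MYC tumours, 1 row per gene. Of the 26, 4 have no tumour value because they were not tested there. The median changes are 1.398, 1.08 and 1.88, and Cox6b2 sits at 0 for Ex3 without MYC.

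Tumours from other animals gave the same direction for the genes that could be tested there. Of the 26 genes 22 were tested in 3 MYC+Ex3 against 3 MYC tumours, 22 were higher, and 20 were called higher, with a median log2 change of 1.88. Of all genes tested in both the livers and the tumours 55.5% were higher. The spread in that fit was estimated with 7 wild-type livers given 4-OHT included. In that comparison 489 of 11854 genes, or 4.13%, were called. Slc1a2 measured 0.434, 4.23 and 0.105 RPKM in the MYC tumours and 26.2, 16.4 and 18.4 RPKM in the MYC+Ex3 tumours (log2 change 3.37, limma adjusted p = 0.00027). Axin2 measured 0.332, 0.660 and 0.095 RPKM in the MYC tumours and 10.7, 7.63 and 11.3 RPKM in the MYC+Ex3 tumours (log2 change 3.0, limma adjusted p = 9.1e-07), and Lgr5 0.071, 0.249 and 0.039 RPKM and 3.77, 2.59 and 3.60 RPKM. Egln3 and Gstm2 were tested and not called, with log2 changes of 0.65 and 0.75. By the authors' deposited values for the same tumour comparison the adjusted p is 0.214 for Slc1a2, 0.232 for Slc1a5 and 0.306 for Rnf43. For Axin2 and Lgr5 it is 4.4e-12 and 4.1e-11. The tumour call of Slc1a2 is therefore not shared by the authors' values. Tumour values are on another RPKM scale than the liver values, so levels are not compared between them, and in a fit of the 6 tumours alone 9 of the 22 were called.

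How many genes were called depended on single livers. Leaving out each of the 20 livers in turn gave 7 to 37 called genes. The count was 8 without MYC liver 1, 7 without MYC liver 3 and 10 without MYC liver 4. It was 7, 8, 7 and 9 without MYC+Ex3 livers 1, 2, 3 and 5, and 37 (33 higher, 4 lower) without MYC+Ex3 liver 4. Axin2, Sp5, Rhbg, Slc1a5, Cox6b2, Teddm2 and Mir670 were called in all 20 of these fits. In the fit of the 10 livers alone Axin2 was not called, and neither were Lgr5 and Slc1a2, and 8 of the 26 were. The 19 genes not called in all 20 fits without 1 liver each lost the call in 6 to 20 of those fits, Slc1a2 in 6 and Lgr5 in 7. None of the 26 changed direction in any alternative that was run. In the fit of the livers without keratin RNA, which also held Ex3 and WT livers, 7 genes were called. Among the 26 were 5 of them (Axin2, Rhbg, Slc1a4, Teddm2 and Mir670). Without MYC livers 4 and 5 there were 4 calls.

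**Figure D4:**
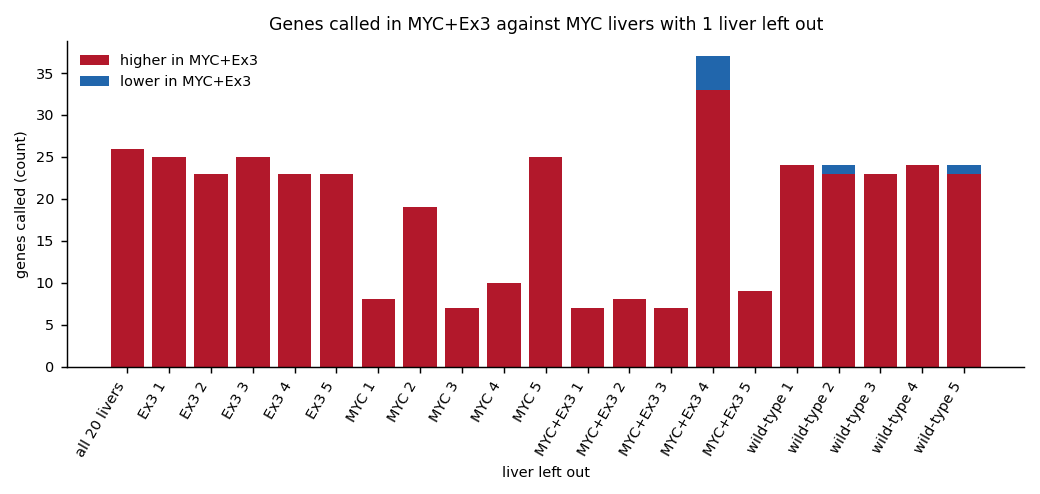
Number of genes called in MYC+Ex3 against MYC livers (vertical axis, from 0) in the fit of all 20 livers and in each fit without 1 liver (horizontal axis), with red for higher and blue for lower in MYC+Ex3. The count is 26 with all livers, falls to 7 at the lowest and reaches 37 without MYC+Ex3 liver 4.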

How the data were processed

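The authors deposited RPKM values for 21671 genes in 33 libraries. Libraries were made with a strand-specific TruSeq total RNA kit, per the labels' protocols. TopHat2 2.0.8, featureCounts 1.4.5-p1, SAMtools, DESeq2 and mm9 are named, without role or order, per the submitters' processing notes. The deposited table also holds the authors' log2 fold changes and adjusted p-values for their own comparisons. Columns of no sample of this series numbered 0. Within each gene all values were whole multiples of 1 read (100% of values, to within 0.05 reads), so reads could be recovered, and the depths are sums of those reads.

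Levels were tested with limma 3.58.1 (R 4.3.3) with an empirical Bayes trend on log2(RPKM + 1), two-sided, fitting all 20 day 4 livers together. A gene was tested when it reached 1 RPKM in at least 3 of the 10 MYC and MYC+Ex3 livers, and called at a Benjamini-Hochberg adjusted p under 0.05. Tumours were fitted separately, with the 7 wild-type livers given 4-OHT. The labels do not say more of the livers than that they are separate samples, so each liver was taken as 1 replicate. The p-values weigh a group difference against the spread between livers within groups, pooled over all groups of the fit. The members and the gene lists were chosen with earlier results of these data known. Named are all called genes, the 10 lower genes with the smallest p, Myc, Ctnnb1, Slc1a2, Axin2, Lgr5 and up to 4 members of each list by p. Alternatives changed the pseudocount, filter, scaling, covariates, weights and samples, and limma's voom was run on the recovered reads. Scripts were tested on simulated data. Figures used Python 3.11.15 and matplotlib 3.10.9.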

Additional observations from a re-analysis of the deposited data

Results flagged for a closer look

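In 2 of 56 groups of 5 livers, 1 for each of the 28 named genes in the MYC livers and in the MYC+Ex3 livers, 1 liver lay apart from the other 4, with a gap above 0.71 of the range of the group. About 1 in 20 groups does so by chance. Teddm2 measured 2.45 RPKM in MYC+Ex3 liver 4 and 7.45 to 8.82 RPKM in the other MYC+Ex3 livers. Cox6b2 measured 2.23 RPKM in MYC liver 5, the library with both Xist and Ddx3y RNA, and 4.15 to 4.41 RPKM in the other MYC livers.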

How the results depend on the processing

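The 26 calls in MYC+Ex3 against MYC livers became 11 with a pseudocount of 0.1, 10 with no filter on low values, 10 in a fit of those 10 livers alone, 7 in livers without keratin RNA, 78 with sample quality weights and 4 without MYC livers 4 and 5, the last chosen after seeing the data. Leaving out each liver in turn gave 7 to 37. The counts with a minimum of 5 RPKM (20), with the filter over all 20 livers (26), with rescaling (26), a sex term (39), a keratin term (34) or voom (20, added after seeing the data) were within 1.5 times. For Ex3 against WT livers, 17 calls became 30 with a sex term, 26 with a keratin term, 2 in livers without keratin RNA and 59 with weights, and 5 to 21 with each liver left out. The interaction called 0 genes in every alternative. For the tumours, 489 calls became 62 in a fit of the 6 tumours alone and 240 to 787 with each tumour left out. The change of Myc turned positive in livers without keratin RNA (0.17), with weights (0.072) and without MYC livers 4 and 5 (0.00898), and ran from -0.14 to 0.13 with each liver left out. The cause of these shifts was not tested. With 4 to 7 M reads, genes of a few reads, such as Gm10790, are measured with little precision. No paired analysis was possible because replicate numbers here only name the livers and the labels tie no animal of a group to one of the other.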
